A study of Saccharomyces cerevisiae with 7 samples.

Results

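Several small nucleolar RNAs of Saccharomyces cerevisiae are not transcribed from genes of their own but lie inside the introns of protein-coding genes. Lariat reads of 7 such host genes are described here: EFB1 (YAL003W), TEF4 (YKL081W), ASC1 (YMR116C), IMD4 (YML056C), NOG2 (YNR053C), RPL7A (YGL076C) and RPL7B (YPL198W). The genes were chosen by name as snoRNA hosts, not by a measured value. They carry 9 of the 280 annotated introns, because RPL7A and RPL7B have 2 introns each. Of the 9 introns, 7 hold a snoRNA, and intron 1 of RPL7A and intron 1 of RPL7B hold none. Of 174421 listed pairs of a 5' splice site and a branch point, 397 used the annotated 5' splice site of one of the 9 introns or joined its branch point within 2 nt. A single read supported 178 of these 397 pairs.

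Splicing releases an intron as a lariat, a loop closed by a bond between the first base of the intron and the branch point adenosine. The debranching enzyme Dbr1 opens the loop, and exonucleases then trim the linear intron back to the snoRNA that proteins have bound. Box C/D snoRNAs guide the addition of methyl groups to the ribose of ribosomal RNA, and H/ACA snoRNAs guide its pseudouridylation. Of the snoRNAs described here, snR191 in NOG2 is of the H/ACA class. The others, snR18 in EFB1, snR38 in TEF4, snR24 in ASC1, snR54 in IMD4, snR39 in RPL7A and snR59 in RPL7B, are of the box C/D class. Most of the host genes encode proteins of translation or of ribosome synthesis.

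The mutant strains carried prp8-V1860N, prp8-V1860D, prp8-V1870N or prp8-N1869D, each a substitution in the RNaseH domain of Prp8, the protein at the core of the spliceosome, and the strain they were set against carried PRP8-WT. In all strains the chromosomal PRP8 was replaced by LYS2 and the allele under study came from plasmid pRS313. All were mat a, carried his3, leu2, ura3 and lys2 markers and lacked DBR1 through a dbr1::Kan disruption, so that lariats were kept in mutants and PRP8-WT alike. Cells grew in rich medium at 30C, and total RNA of whole cells went through a ribosomal RNA depletion and an RNase R step, which removes linear RNA. Each strain had 1 library. A further biological sample of prp8-N1869D, its second sample, was read as 2 technical libraries, which were summed here. For the other alleles no replicate check of a difference from PRP8-WT exists, and every mutant is set against the same single PRP8-WT library. The libraries held between 652680 and 3517283 lariat reads, and PRP8-WT was the deepest. Intervals below are exact binomial 95% intervals, which cover counting error only since reads are not independent molecules, and no test between strains was made.

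The 9 introns were alike at the start and differed at the branch point. Their lariats were 253 to 494 nt long, and each snoRNA began 79 to 181 nt after the 5' splice site and ended 85 to 160 nt before the branch point. All 9 began with GTATGT, as did 217 of the 280 annotated introns. The branch regions are shown because NOG2 and intron 1 of both RPL7 genes differ there from the other introns. The capital marks the annotated branch point, in build R64, and the letters come from the RefSeq reference of that build.
EFB1 (chrI:142571-142593, plus strand): agttctcattactaAcaagcaaa
TEF4 (chrXI:283358-283380, plus strand): ggattgttttactaAcatttctt
ASC1 (chrXIII:499891-499913, minus strand): ttgttcccttactaAcaaaaatg
IMD4 (chrXIII:163414-163436, minus strand): ggcttattttactaAcattgcta
NOG2 (chrXIV:721801-721823, minus strand): gtattttttactaaCagaaggtt
RPL7A intron 2 (chrVII:364995-365017, minus strand): gtatttttttactaAcatcaatt
RPL7B intron 2 (chrXVI:174023-174045, plus strand): tactgatcttactaAcattaatc
RPL7A intron 1 (chrVII:365550-365572, minus strand): tttcggttatgctaAcaaaaata
RPL7B intron 1 (chrXVI:173535-173557, plus strand): tgacttctttgctaAcatttttt
In 6 introns the annotated branch point was the last A of TACTAAC, the heptamer of 230 of the 280 introns. NOG2 also had the letters TACTAAC, but its annotated branch point was the C after that A, and it was the 1 branch point of 280 that was not an A. Intron 1 of RPL7A and intron 1 of RPL7B, the introns of the list without a snoRNA, both had TGCTAAC, which 3 of the 280 introns had. The first and the last 30 nt of each lariat occurred at 1 place in the genome, so reads of RPL7A and of its close copy RPL7B could be told apart at both ends of the introns.

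Annotated lariats of each host intron were expressed as a share of all annotated lariat reads of the library, per 10000. In such bulk RNA, fewer cells with a lariat and fewer lariats per cell cannot be told apart, nor can less transcription and less splicing. TEF4, which encodes the gamma subunit of translation elongation factor eEF1B, gave the most lariats. Its share was 51.0 for prp8-V1860N, 52.1 for prp8-V1860D, 61.6 for prp8-V1870N, 69.5 for prp8-N1869D and 67.8 for its second sample, against 51.8 in PRP8-WT. TEF4 was thus close to PRP8-WT in prp8-V1860N and prp8-V1860D and higher in the other mutant samples, by 1.19-fold (1.16 to 1.22) in prp8-V1870N and by 1.34-fold (1.305 to 1.38) and 1.31-fold (1.27 to 1.35) in the first and second samples of prp8-N1869D. It supplied 63.6% of the reads of the 7 snoRNA introns in PRP8-WT and so dominates their sum.

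EFB1 encodes the alpha subunit of the same elongation factor, the part that exchanges the nucleotide. Its share was 8.08 for prp8-V1860N, 6.82 for prp8-V1860D, 7.503 for prp8-V1870N, 7.69 for prp8-N1869D and 10.1 for its second sample, against 9.98 in PRP8-WT. The log2 ratios to PRP8-WT were -0.30, -0.55, -0.41, -0.37 and 0.02 in that order. EFB1 was therefore lower in 4 of 5 mutant samples, but the samples of prp8-N1869D differed between them by 1.32-fold (1.201 to 1.45), which is about the size of the difference itself.

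IMD4 encodes an IMP dehydrogenase, an enzyme of guanine nucleotide synthesis. It had 5.29 reads per 10000 for prp8-V1860N, 4.82 for prp8-V1860D, 6.01 for prp8-V1870N, 8.55 for prp8-N1869D and 7.85 for its second sample, against 4.69 in PRP8-WT. All mutant samples lay above PRP8-WT, although the interval of prp8-V1860D included 1. The ratio was 1.82 (1.67 to 1.98) and 1.67 (1.54 to 1.82) in the first and second samples of prp8-N1869D, which differed by less between them, 0.918-fold (0.834 to 1.01). Of the 7 snoRNA introns, IMD4 was the one past 1.5-fold higher in both prp8-N1869D samples, where 43.6% and 44.3% of all 280 introns were past that fold. With DESeq2 size factors, or as a share of introns outside ribosomal protein and host genes, no snoRNA intron passed it in either sample, and with TMM scaling none did in the second. The median log2 ratio of all introns was also lower on those scales, and how many of all introns passed the fold there was not counted. No snoRNA intron was past 1.5-fold higher in prp8-V1860N, prp8-V1860D or prp8-V1870N, against 10%, 10.4% and 30% of all introns.

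ASC1 encodes the yeast counterpart of RACK1, a scaffold protein on the small ribosomal subunit. Its share was 4.18 for prp8-V1860N, 3.13 for prp8-V1860D, 4.19 for prp8-V1870N, 6.70 for prp8-N1869D and 4.66 for its second sample, against 4.57 in PRP8-WT. The lowest value was that of prp8-V1860D, at 0.684-fold (0.619 to 0.754) of PRP8-WT. The first prp8-N1869D sample was 1.46-fold higher than PRP8-WT and the second 1.02-fold, and the second was 0.696-fold (0.619 to 0.782) of the first, so no difference of prp8-N1869D larger than the spread between its samples can be stated for ASC1.

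NOG2 encodes a GTPase that acts on the precursor of the large ribosomal subunit. Its annotated lariats made up 2.54 per 10000 for prp8-V1860N, 1.81 for prp8-V1860D, 2.26 for prp8-V1870N, 2.54 for prp8-N1869D and 3.35 for its second sample, against 2.83 in PRP8-WT. In prp8-V1860D it was 0.640-fold (0.562 to 0.727) of PRP8-WT, the 1 snoRNA intron past 1.5-fold lower there, where 3.21% of all introns were. As a share of introns outside ribosomal protein and host genes, 3 (EFB1, ASC1 and NOG2) were past that fold in prp8-V1860D. On that scale 1 (EFB1) was past it in prp8-V1870N. On the exact annotated base NOG2 had 6 reads in prp8-V1860D and 9 in PRP8-WT, too few to give a fold. On the scale of all annotated reads, no snoRNA intron was past 1.5-fold lower in prp8-V1860N, prp8-V1870N or either prp8-N1869D sample, against 1.43%, 8.93%, 14.3% and 18.2% of all introns. In the first prp8-N1869D sample, 1 (EFB1) passed it with TMM, with DESeq2 size factors or as that share outside ribosomal protein and host genes. How many of all introns passed it on these other scales was not counted, so such calls are a description only. For NOG2 the annotated count leaves out many neighbouring reads, as given with the branch positions, and with all neighbouring pairs counted the ratios were 0.854, 0.582, 0.725, 0.888 and 1.13.

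RPL7A and RPL7B encode 2 near-identical versions of a protein of the large ribosomal subunit, and each holds its snoRNA in intron 2. RPL7A intron 2 had 6.97 reads per 10000 for prp8-V1860N, 5.19 for prp8-V1860D, 6.11 for prp8-V1870N, 8.48 for prp8-N1869D and 7.77 for its second sample, against 7.22 in PRP8-WT. RPL7B intron 2 was the least read of the 9 introns, with 77, 59, 61, 51 and 48 reads in the mutant samples in the same order, against 110 in PRP8-WT, and the intervals of all 5 ratios included 1. Intron 1 of RPL7A had 11.01, 9.39, 11.2, 15.3 and 16.3 reads per 10000 in the mutants, against 10.5 in PRP8-WT, and was 1.45-fold (1.37 to 1.55) and 1.55-fold (1.47 to 1.65) higher in the first and second samples of prp8-N1869D. Intron 1 of RPL7B had 19.8, 21.97, 23.0, 22.6 and 16.6, against 21.0 in PRP8-WT, and was the one of the 9 introns whose prp8-N1869D samples lay on opposite sides of PRP8-WT with both intervals away from 1, at 1.08-fold (1.02 to 1.13) and 0.791-fold (0.751 to 0.833).

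**Figure D1:**
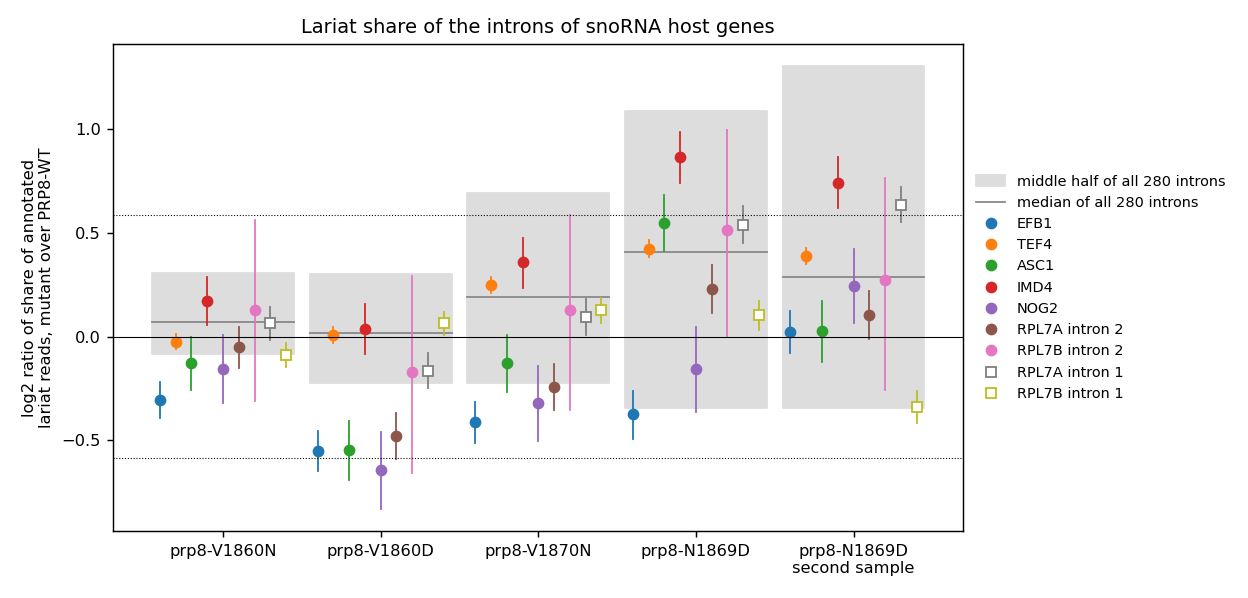
The plot gives, for each mutant sample, the log2 ratio of an intron's share of annotated lariat reads over PRP8-WT, with exact 95% counting intervals; filled circles hold a snoRNA, open squares do not, the grey band spans the quartiles of all 280 introns with their median as a line, and dotted lines mark 1.5-fold. IMD4 is the highest snoRNA intron in every mutant sample and passes 1.5-fold in both prp8-N1869D samples, while in prp8-V1860D EFB1, ASC1, NOG2 and RPL7A intron 2 lie below the grey band.

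The median of the snoRNA introns was furthest from that of all introns in prp8-V1860D. The median log2 ratio of the 7 was -0.05 for prp8-V1860N, -0.48 for prp8-V1860D, -0.13 for prp8-V1870N, 0.42 for prp8-N1869D and 0.24 for its second sample. Over all 280 introns the medians were 0.07, 0.02, 0.19, 0.41 and 0.29. Below PRP8-WT lay 5 of the 7 for prp8-V1860N, 5 for prp8-V1860D, 4 for prp8-V1870N, 2 for prp8-N1869D and 0 for its second sample, where the shares over all introns were 39.6%, 48.2%, 40.7%, 36.4% and 42.9%. In the 99 introns outside these genes with a lariat of like length (253 to 494 nt) the medians were -0.05, -0.08, -0.21, -0.40 and -0.46, and in the 100 ribosomal protein introns outside these genes -0.03, -0.08, -0.19, -0.36 and -0.35. In both prp8-N1869D samples the median of the 7 snoRNA introns was thus near that of all introns and above PRP8-WT. Introns of like length and ribosomal protein introns had medians below PRP8-WT there. So did not every snoRNA intron rise: intron 2 of RPS22B, which holds snR44 and is not among these hosts, lay below PRP8-WT in all mutant samples. Its ratios were 0.787, 0.709, 0.887, 0.670 and 0.735 in the order given above, with all intervals away from 1. The choice of scale sets the zero of these ratios. With introns outside ribosomal protein and host genes as the denominator, the median of all introns shifted by -0.32 and -0.47 in the first and second samples of prp8-N1869D and by -0.23 in prp8-V1870N, and the medians of the 7 became 0.10, -0.22 and -0.36, so that the sign turned in the second sample of prp8-N1869D, as it did for all introns, to -0.18. With DESeq2 size factors the median of the 7 in that sample was -0.048.

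The introns most like the summed snoRNA introns over the 5 mutant samples, among 232 introns outside these genes with at least 50 reads in every sample, were those of ARP2, SCS22 and NCB2. Their root mean square distances in log2 ratio were 0.092, 0.10 and 0.15. Since TEF4 gave 63.6% of the summed reads in PRP8-WT, this likeness weighs TEF4 most and need not hold for the other snoRNA introns. ARP2 encodes an actin-related protein, and its log2 ratios were -0.10, -0.22, 0.05, 0.31 and 0.49, against -0.05, -0.13, 0.11, 0.35 and 0.32 for the summed snoRNA introns. Between the prp8-N1869D samples the size of the log2 difference had a median of 0.24 over the 9 introns and 0.29 over all introns.

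Because both introns of an RPL7 transcript are read in the same library, the share of intron 2 does not depend on depth. In RPL7A, intron 2 gave 38.8% of the lariats of both introns for prp8-V1860N (1359 reads), 35.6% for prp8-V1860D (956), 35.2% for prp8-V1870N (947), 35.7% for prp8-N1869D (842) and 32.2% for its second sample (859), against 40.7% in PRP8-WT (2198). All mutant samples lay below PRP8-WT, and the intervals of 4 of them ended below its lower bound of 39.4%, while that of prp8-V1860N, 37.2 to 40.4, overlapped it. Technical libraries of the second sample of prp8-N1869D gave 29.2% and 35.4%, a gap larger than that between the first prp8-N1869D sample and PRP8-WT.

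In RPL7B the snoRNA intron was a far smaller part. Its intron 2 gave 1.96% of the lariats of both introns for prp8-V1860N, 1.44% for prp8-V1860D, 1.69% for prp8-V1870N, 2.22% for prp8-N1869D and 2.55% for its second sample, against 1.69% in PRP8-WT. Intervals of all mutant samples overlapped that of PRP8-WT, 1.39 to 2.03. In PRP8-WT the intron with snR59 was read 110 times and intron 1 of the same gene 6394 times, a ratio of 58.1, against 1.46 in RPL7A. Counted on the exact annotated base only, these were 67 and 1601 reads, a ratio of 23.9, against 1.49 in RPL7A, and intron 2 of RPL7B gave 4.02% in PRP8-WT. Of the intron 1 lariats of both genes RPL7B gave 66.7% in PRP8-WT, but of the intron 2 lariats it gave 4.77% (3.93 to 5.72). Its intron 1 share in the mutants was 64.2% for prp8-V1860N, 70.1% for prp8-V1860D, 67.2% for prp8-V1870N, 59.6% for prp8-N1869D and 50.4% for its second sample. Reads were also unequal in other genes. Those with 2 annotated introns and at least 100 reads over both in PRP8-WT numbered 5. In PRP8-WT intron 2 gave 2.12% in YOS1, 14.6% in SUS1, 55.4% in VMA9, 99.3% in RPS22B and 99.9% in EFM5. A lariat from the 5' splice site of intron 1 to the branch point of intron 2, which would skip exon 2, was read 4 times in RPL7B (2 times for prp8-V1860N, once each for prp8-V1860D and prp8-V1870N, and 0 times for prp8-N1869D and PRP8-WT) beside 21938 reads of its intron 1, and 0 times in RPL7A, beside 12140.

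**Figure D2:**
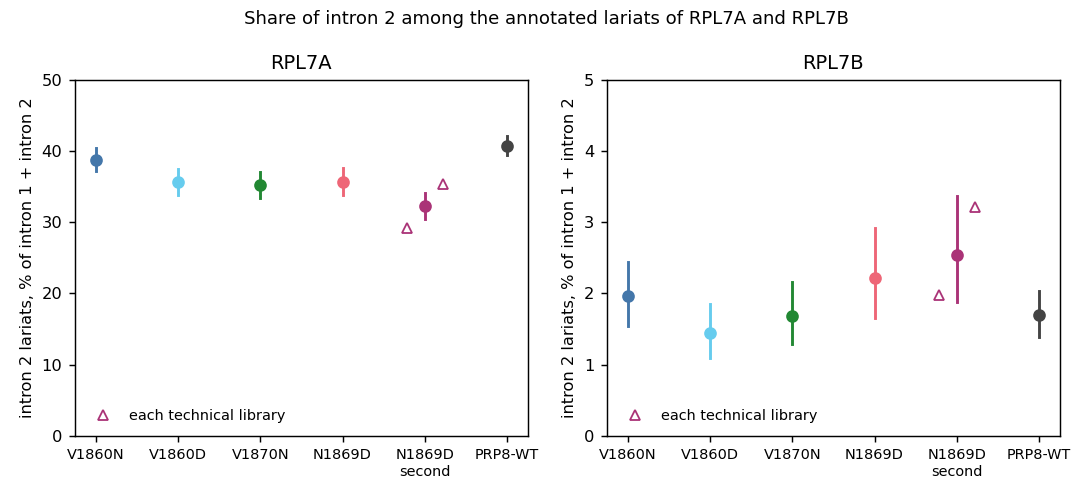
Each panel plots the share of intron 2 among the annotated lariats of both introns of the gene, in percent with exact 95% counting intervals, by strain; open triangles are the technical libraries of the second sample of prp8-N1869D, and the axes of the panels differ. RPL7A lies between 32.2% and 38.8% in the mutants and at 40.7% in PRP8-WT, and RPL7B lies between 1.44% and 2.55% in the mutants and at 1.69% in PRP8-WT.

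Annotated counts include reads that end within 2 nt of the annotated branch point, and the host introns differed in where those reads ended. Over the 7 libraries, 65.6% of EFB1 reads and 59.6% of RPL7B intron 2 reads sat on the annotated base, against 48.5% in TEF4, 46.8% in ASC1, 41.1% in RPL7A intron 2 and 39.1% in IMD4, and 42.7% over all introns. Most of the rest sat 1 nt before it. In NOG2, 1.4% of the reads sat on the annotated base, 46.4% 1 nt before it and 52.2% 2 nt before it, which puts them on both letters A before the annotated C. Counted from the last A of TACTAAC, 46.4% of NOG2 reads sat on that A and 52.2% 1 nt before it. Over all introns 42.7% sat on the annotated base and 47.4% 1 nt before it, so NOG2 was near them on this count. Another 180 reads of NOG2 sat 3 nt before, outside the annotated count. Summed over the 9 introns, to which TEF4 gave the most reads, the share on the annotated base was 41.7% for prp8-V1860N, 44.2% for prp8-V1860D, 43.5% for prp8-V1870N and 43.0% as the mean of both prp8-N1869D samples, against 42.5% for PRP8-WT. Over all introns it was 42.4%, 43.7%, 42.6%, 42.5% and 43.05% in the mutant samples in the same order, with the second prp8-N1869D sample last, against 42.4% in PRP8-WT. Single host introns differed by more. Those named next were picked, from all 9 introns and all mutant samples, because an interval lay apart from that of PRP8-WT. How many of all introns had such an interval was not counted, so these are a description only. In ASC1 the share was 47.2% for prp8-V1860N, 46.5% for prp8-V1860D, 45.1% for prp8-V1870N, 51.3% (47.4 to 55.1) for prp8-N1869D and 53.4% (49.0 to 57.8) for its second sample, against 42.7% (40.1 to 45.4) in PRP8-WT, and the intervals of both prp8-N1869D samples lay above that of PRP8-WT. In TEF4 those of prp8-V1860D, at 51.4% (50.4 to 52.4), and prp8-V1870N, at 49.9% (48.9 to 51.0), lay above that of PRP8-WT, at 47.2% (46.5 to 48.0). In EFB1 the second prp8-N1869D sample lay above PRP8-WT, at 69.4% (66.6 to 72.1) against 63.8% (62.1 to 65.5). The first was lower, at 61.4%. Other intervals lay below that of PRP8-WT. In RPL7A intron 2, prp8-V1860N was at 37.2% (34.7 to 39.9), against 43.5% (41.4 to 45.6). In RPL7B intron 1, the first prp8-N1869D sample was at 21.4% (19.8 to 23.2), against 25.04% (23.98 to 26.12). The second was at 24.5%.

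**Figure D3:**
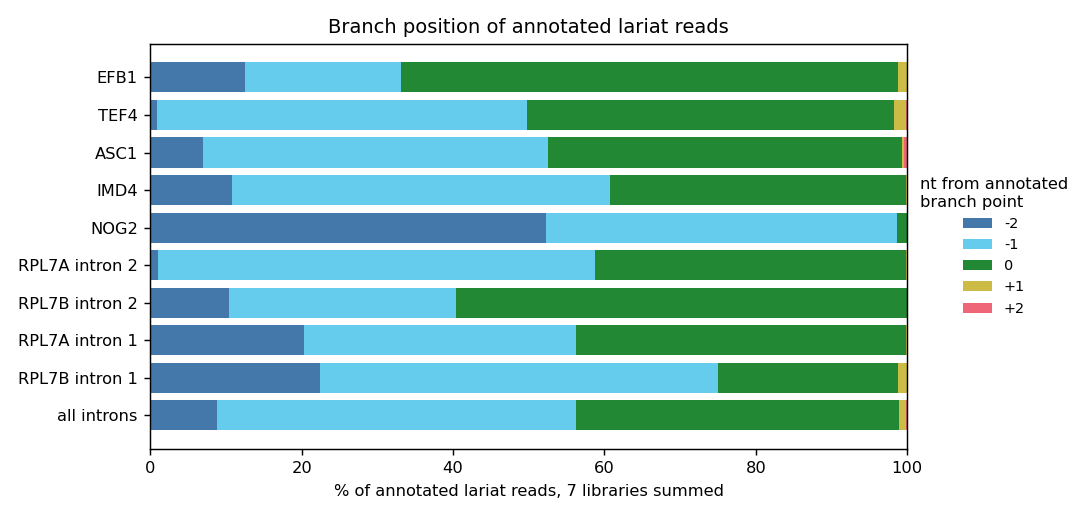
Bars split the annotated lariat reads of each host intron, and of all introns, by their distance from the annotated branch point in nt, as percent of reads summed over 7 libraries. NOG2, whose annotated base is the C after the last A of TACTAAC, has 52.2% of its reads 2 nt before that base, against 8.8% over all introns. Counted from that A, 46.4% of its reads sit on it and 52.2% 1 nt before it, near the 42.7% and 47.4% of all introns.

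NOG2 also had reads whose 5' end was displaced. Pairs with a 5' splice site 1 to 5 nt from the annotated one made up 35.2% of its reads, the second highest of 259 introns with at least 100 reads, against a median of 0.39%. The share was 35.1% for prp8-V1860N, 32.5% for prp8-V1860D, 30.9% for prp8-V1870N, 38.1% for prp8-N1869D and 34.9% for its second sample, against 37.2% in PRP8-WT, so mutants lay on both sides of it. The displaced ends were spread on both sides of the annotated site, with 680 reads 1 nt inside the intron and 414 reads 1 nt before it. The annotated count of NOG2 covered 60.9% of the 4372 reads with both ends in the vicinity. IMD4 was the next host by this measure, with 6.28% displaced reads, and the other host introns had between 0% and 1.82%.

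Lariats that joined the annotated 5' splice site to another branch point inside the intron were most frequent, leaving NOG2 aside, in EFB1 and IMD4 among the well-read snoRNA introns. They made up 2.34% of EFB1 reads and 2.73% of IMD4 reads over the 7 libraries, against a median of 0.40% of 234 introns. In RPL7B intron 2 the share was 6.02%, from 26 reads. In each of EFB1 and IMD4 one place carried most of these reads, and strains differed in opposite directions at the 2 places.

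The place in EFB1 lay 88 nt after the first base of the intron and 25 nt before snR18, so that the loop leaves the snoRNA out. In the sequences below the capital marks the branch point. The second line shows a branch point beyond the gene that EFB1 lariats also reached, where reads were placed 741 to 743 nt after the annotated branch point and the capital marks the last of these positions.
EFB1 branch before snR18 (chrI:142328-142350, plus strand): agggaagttaactaAtaatgatt
EFB1 branch beyond the gene (chrI:143314-143336, plus strand): aaacattattactaAtttgtgta
The letters around the branch point are AACTAAT. It was read 23 times for prp8-V1860N, 20 for prp8-V1860D, 33 for prp8-V1870N, 26 for prp8-N1869D and 32 for its second sample, against 34 times in the deeper PRP8-WT library. As a share of these plus annotated reads this was 1.44%, 1.57%, 2.76%, 3.29% and 2.78% in the mutants and 1.11% (0.768 to 1.54) in PRP8-WT. The ratio to PRP8-WT was 2.49 (1.496 to 4.15) in prp8-V1870N and 2.97 (1.71 to 5.10) and 2.51 (1.497 to 4.19) in the first and second samples of prp8-N1869D, whereas the intervals of prp8-V1860N and prp8-V1860D included 1. Technical libraries of the second sample of prp8-N1869D gave 2.22% and 3.35%. Of the snoRNA introns, EFB1 had 176 reads of branch points before the snoRNA, and the others had between 0 and 23. The branch point beyond EFB1, in TACTAAT between genes, was read 41 times in all: 5, 9, 5, 3 and 2 times in the mutants and 17 times in PRP8-WT.

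The place in IMD4 lay 141 nt after the first base of the intron, inside snR54. In the first line the capital is the branch point, and in the second, the whole snoRNA, capitals mark TGATGA, a form of box C, and CTGA, the letters of box D, on the strand shown.
IMD4 branch inside snR54 (chrXIII:163567-163589, minus strand): ctttcgttctactgActgtgatc
snR54 (chrXIII:163535-163620, minus strand): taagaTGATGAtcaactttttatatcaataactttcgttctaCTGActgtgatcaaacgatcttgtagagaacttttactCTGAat
The branch point was the A of TACTGAC and base 46 of the 86 nt of snR54, the last letter of its internal CTGA. It was read 31 times for prp8-V1860N, 6 for prp8-V1860D, 12 for prp8-V1870N, 16 for prp8-N1869D and 17 for its second sample, against 67 in PRP8-WT. The share was 2.92%, 0.672%, 1.27%, 1.85% and 1.92% in the mutants and 4.48% (3.49 to 5.66) in PRP8-WT, the highest of all samples. The ratio to PRP8-WT was 0.150 (0.0531 to 0.344) in prp8-V1860D, 0.284 (0.140 to 0.529) in prp8-V1870N and 0.413 (0.223 to 0.720) and 0.429 (0.236 to 0.738) in the first and second samples of prp8-N1869D, and the interval in prp8-V1860N, 0.411 to 1.01, included 1. The annotated IMD4 reads in the denominator were themselves higher in both samples of prp8-N1869D, as given above. No other host intron had more than 4 branch point reads inside its snoRNA. The same heptamer, TACTGAC, stands at the annotated branch point of 2 of the 280 introns.

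**Figure D4:**
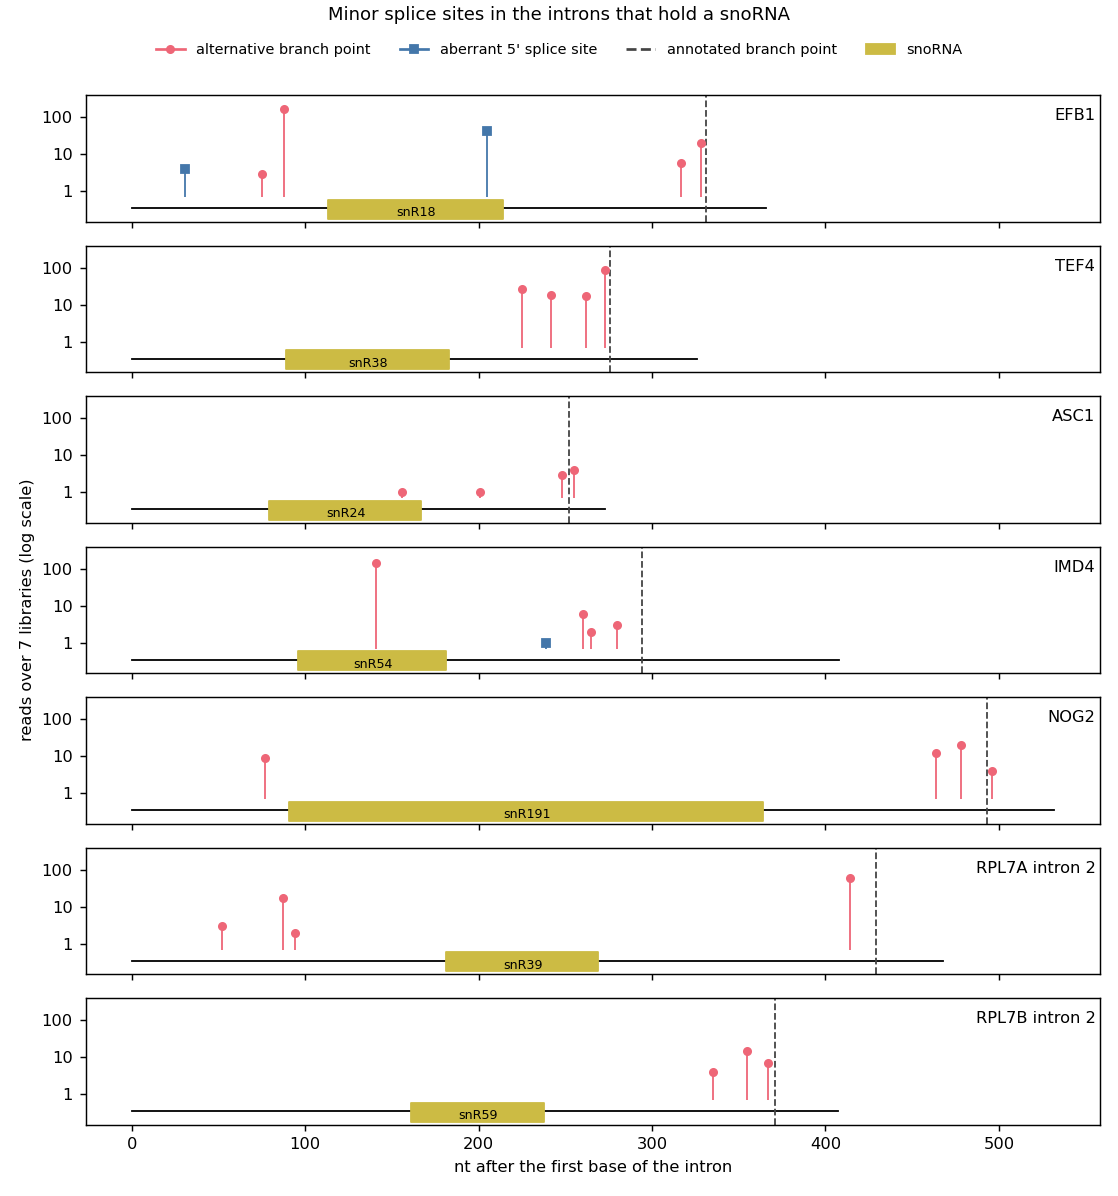
Each row is an intron with a snoRNA (yellow box), drawn to scale in nt from its first base; the height of a stem is the number of reads over 7 libraries on a log axis, for up to 4 alternative branch points (red circles) and 2 aberrant 5' splice sites (blue squares) with the most reads, and the dashed line is the annotated branch point. EFB1 has 168 reads before snR18 and IMD4 149 reads inside snR54, while the reads of NOG2 3 nt before its annotated branch point are not drawn.

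Further alternative branch points lay 11 to 60 nt before the annotated one, between the snoRNA and the branch point, a window chosen after the values were seen. In the 7 snoRNA introns together these took 0.183% of reads for prp8-V1860N (28 reads), 0.175% for prp8-V1860D (24), 0.285% for prp8-V1870N (39), 0.453% for prp8-N1869D (47) and 0.433% for its second sample (49), against 0.0967% in PRP8-WT (24). The ratios to PRP8-WT were 1.89 (1.06 to 3.41), 1.81 (0.986 to 3.33), 2.95 (1.73 to 5.12), 4.68 (2.81 to 8.01) and 4.47 (2.69 to 7.62). The interval of prp8-V1860N included 1 without EFB1 (0.982 to 3.29), without IMD4 (0.959 to 3.34) or without RPL7A intron 2 (0.904 to 3.61). Over all introns outside these genes the ratios were 1.14, 1.14, 1.54, 1.71 and 2.35, and over the 99 introns of like lariat length 1.02, 0.893, 1.11, 1.25 and 1.07. The level itself was higher over all introns outside these genes than in the snoRNA introns, at 0.510% in PRP8-WT and 0.581% to 1.20% in the mutants. Over the introns of like length it was lower, at 0.0577% in PRP8-WT. Intron 2 of RPS22B, which holds snR44 and is not among these hosts, had 1, 1, 4, 4 and 12 such reads in the mutants and 3 in PRP8-WT, with ratios of 6.07 (1.03 to 41.4) and 14.8 (3.99 to 81.6) in the first and second samples of prp8-N1869D. Technical libraries of the second sample of prp8-N1869D differed, at 0.265% and 0.600%. Without RPL7A intron 2, the ratios were 1.80, 1.48, 2.37, 4.88 and 3.97.

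Over the 7 libraries, TEF4, NOG2 and RPL7A intron 2 had at least 20 such reads each, of which PRP8-WT gave 7, 5 and 6. They met this limit only with the reads of the mutants, which favours higher over lower calls. The calls are therefore a description only. Of these 3 introns, 2 were past 1.5-fold higher in prp8-V1860N, 2 in prp8-V1860D and all 3 in the other mutant samples. Among the 63 introns with as many reads, 27% were past that fold for prp8-V1860N, 20.6% for prp8-V1860D, 41.3% for prp8-V1870N and 50.8% and 44.4% in the first and second samples of prp8-N1869D. None of the 3 was past 1.5-fold lower in any mutant sample, where 15.9%, 23.8%, 9.52%, 6.35% and 9.52% of the introns were. Many of these calls rest on few reads. The interval of the ratio included 1 for NOG2 in every mutant sample and for RPL7A intron 2 in prp8-V1860N. For TEF4 it included 1 in prp8-V1860N, prp8-V1860D and prp8-V1870N. The 4 places whose next letters are GTA are shown, a pattern picked after their reads were seen, with the capital at the branch point. They were read 58 times in RPL7A intron 2, 18 in NOG2, 14 in RPL7B intron 2 and 11 in TEF4. The place 34 nt before the branch point of TEF4, also with 11 reads, does not precede GTA.
RPL7A intron 2 (chrVII:365010-365032, minus strand): tgtgttttccatctGgtattttt
NOG2 (chrXIV:721816-721838, minus strand): attatgaaacaaaaTgtattttt
RPL7B intron 2 (chrXVI:174007-174029, plus strand): acgttaaaaccaaaAgtactgat
TEF4 (chrXI:283307-283329, plus strand): aataacaaaaaggaAgtacaaag
The base read as the branch point was G, T or A in these 4 lines. They were 4 of 48 read positions in the snoRNA introns, against 52 of 903 read positions over all introns. In the snoRNA introns they held 47.9% of the 211 reads, against 1.69% of the 71495 reads in this window over all introns. Since the letters were picked from these same reads, the share is a description only, and without the place in RPL7A intron 2 it was 28.1% of 153 reads. By strain it was 57.1% for prp8-V1860N, 58.3% for prp8-V1860D, 53.8% for prp8-V1870N, 29.8% for prp8-N1869D and 55.1% for its second sample, against 37.5% in PRP8-WT, where it rested on 9 of 24 reads. Of all positions in the window, 1.43% precede GTA in the snoRNA introns and 1.26% in all introns. The place in RPL7A intron 2, 15 nt before its branch point and taken with neighbours within 2 nt, was read 8 times for prp8-V1860N, 9 for prp8-V1860D, 14 for prp8-V1870N, 8 for prp8-N1869D and 15 for its second sample, against 5 times in PRP8-WT. The 15 reads of the second sample came 2 and 13 from its technical libraries.

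**Figure D5:**
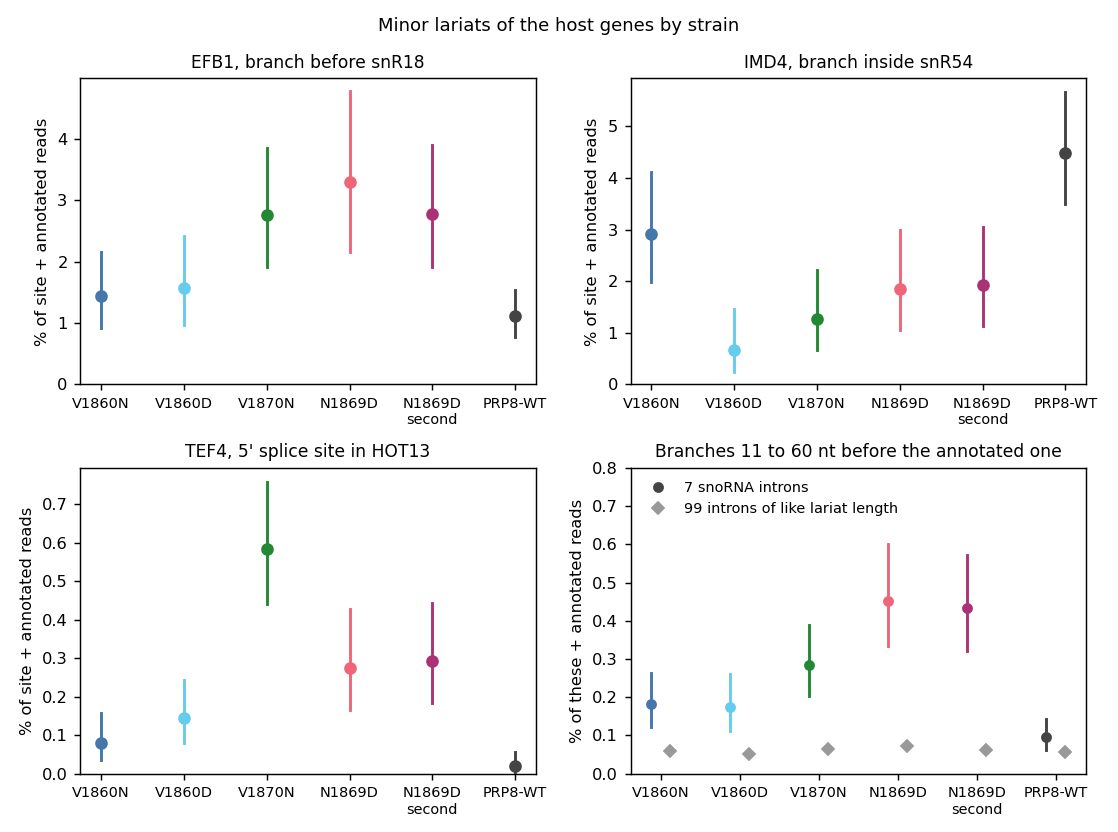
The panels plot, by strain, the share of 3 single sites and of the branches 11 to 60 nt before the annotated one, in percent of their own plus annotated reads with exact 95% counting intervals; axes differ between panels. The EFB1 branch before snR18 is at 3.29% and 2.78% in the first and second samples of prp8-N1869D and 1.11% in PRP8-WT, the IMD4 branch inside snR54 is highest in PRP8-WT at 4.48%, and introns of like lariat length (grey) lie between 0.0516% and 0.0721% in the mutants and at 0.0577% in PRP8-WT.

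Aberrant 5' splice sites, at a distance of over 5 and under 1000 nt from the annotated site and with the annotated branch point within 2 nt, were rare in the host genes. Over the 9 introns they took 0.0938% of reads for prp8-V1860N, 0.0976% for prp8-V1860D, 0.0949% for prp8-V1870N, 0.0780% for prp8-N1869D and 0.187% for its second sample, against 0.116% in PRP8-WT. Technical libraries of that second sample gave 0.276% and 0.0955%. In all introns outside these genes the shares were 0.399%, 0.332%, 0.450%, 0.456% and 0.478% in the mutants and 0.423% in PRP8-WT. TEF4, ASC1 and NOG2 had none in any library, and IMD4 and RPL7A intron 2 had 1 read each. TEF4 gave 59247 annotated reads over the libraries and so lowers the share over the 9 introns, which does not hold for EFB1. Another intron that holds a snoRNA, intron 2 of RPS22B with snR44, stood apart with 34.5%, 32.9%, 31.2%, 47.6% and 51.6% in the mutants and 21.1% in PRP8-WT. The annotated 5' splice site of another intron was not excluded. The 4 reads of RPL7B that would skip exon 2 are therefore counted as aberrant too, and reads from the intron 1 site of RPS22B may be. The sites with the most reads in the host genes are shown with snR18, whose end contains one of them. Capitals mark the 6 bases that start the aberrant intron, and in snR18 they mark TGATGA and CTGA.
snR18 (chrI:142367-142468, plus strand): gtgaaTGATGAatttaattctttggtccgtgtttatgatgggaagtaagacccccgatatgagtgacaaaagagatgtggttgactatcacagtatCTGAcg
EFB1 inside snR18 (chrI:142453-142472, plus strand): atcacaGTATCTgacgatag
RPL7B upstream of intron 1 (chrXVI:173107-173126, plus strand): tgtagaGTAAGTagacccat
RPL7A inside intron 1 (chrVII:365956-365975, minus strand): gaaatcGTCTATtttattac
TEF4 lariats, site in HOT13 (chrXI:280739-280758, plus strand): tgcagaGTATTAcgactaca
TEF4 lariats, site opposite RRP14 (chrXI:281875-281894, plus strand): tctgtaGTATCTtttttaga
EFB1 held 50 of the aberrant reads, and 42 of them started 205 nt inside the intron, at base 93 of the 102 nt of snR18. The 6 bases GTATCT there overlap the CTGA of snR18 at bases 97 to 100. The site was read 6 times for prp8-V1860N, 3 for prp8-V1860D, 8 for prp8-V1870N, 3 for prp8-N1869D and 8 for its second sample, against 14 in PRP8-WT, and the intervals of all ratios included 1. As a share of site plus annotated reads this was 0.380%, 0.238%, 0.683%, 0.391% and 0.709% in the mutants and 0.459% in PRP8-WT. In PRP8-WT this single site was thus near the aberrant share of all introns outside these genes. RPL7B had a site 50 nt upstream of intron 1, with the letters GTAAGT, read 4, 2, 8, 2 and 11 times in the mutants and 9 times in PRP8-WT. Of the 11 reads in the second prp8-N1869D sample, 9 came from 1 technical library. RPL7A had a site 16 nt inside intron 1, read 4, 9, 0, 1 and 4 times in the mutants and 4 times in PRP8-WT.

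TEF4 had no aberrant site within 1000 nt, but its branch point was also joined to 5' splice sites further upstream, in or opposite other genes. One lay 2351 nt before the TEF4 site, in HOT13, a gene of a mitochondrial zinc-binding protein on the same strand. It was read 8 times for prp8-V1860N, 14 for prp8-V1860D, 56 for prp8-V1870N, 19 for prp8-N1869D and 22 for its second sample, against 3 in PRP8-WT. All mutants lay above PRP8-WT as a share of these plus annotated reads, at 0.0804%, 0.146%, 0.583%, 0.274% and 0.293%, against 0.0190% (0.00392 to 0.0556). The ratio was 30.7 (9.97 to 153) in prp8-V1870N and 14.4 (4.24 to 76.1) and 15.4 (4.62 to 80.3) in the first and second samples of prp8-N1869D, with wide intervals because PRP8-WT had 3 reads. The site was listed for its 122 reads over the 7 libraries, nearly all from mutants. Such a choice favours a mutant excess, so the ratios are a description only. A second one lay 1215 nt upstream, opposite RRP14, which encodes a protein of ribosome synthesis, and was read 11, 12, 13, 6 and 14 times in the mutants and 5 times in PRP8-WT.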

How the data were processed

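Per the file headers, the deposited values are raw counts of branch-spanning lariat reads, listed by 5' splice site with its branch point and also summed by annotated intron. The authors worked with Bowtie2, Trimmomatic and build R64, per the submitters' processing notes. Their versions, and how strand was assigned, are not given in the sources at hand. Another 70 columns of per-sample values were not used.

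The genes, lists and sites were chosen with earlier results of these data known. The named features are all introns of the host genes, RPS22B, the sites with the most reads per host intron, and the 3 introns with the most similar ratios. The 2 technical libraries were summed. The annotated count equalled the sum of the matching pairs in 280 of 280 introns. Sites within 2 nt of a neighbour were grouped. Ratios of shares used a pseudocount of 0.5 reads for log2 values over all introns, a threshold of 1.5-fold, and no p-values, because strains have 1 library each except prp8-N1869D. Sequences and annotation came from the RefSeq reference of build R64. Calculations ran in Python 3.11.15 (scipy 1.17.1, pandas 2.3.3, numpy 2.4.6, matplotlib 3.10.9), with R 4.3.3, edgeR 4.0.16 and DESeq2 1.42.0 for alternative scaling only. The scripts were tested on simulated data.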

Additional observations from a re-analysis of the deposited data

How the results depend on the processing

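Of 180 alternatives, 111 left the value within the limits of error or within 1.5 times for counts, 64 moved it and 5 turned its sign. The summed log2 ratio of the snoRNA introns over PRP8-WT depended on the scale. In prp8-V1870N (0.11) it was -0.017 with TMM, -0.027 with DESeq2 size factors, -0.12 as a share of introns outside ribosomal protein and host genes and -0.16 without TEF4, against 0.17 at the exact branch point. In prp8-N1869D (mean 0.34) these were 0.095, 0.042, -0.055 and 0.21, and leaving out a sample or technical library gave 0.30 to 0.38. In prp8-V1860N (-0.05) they were -0.14, -0.13, -0.087 and -0.11. In prp8-V1860D (-0.13) DESeq2 gave -0.093, the share outside ribosomal protein and host genes -0.22, the exact branch point -0.072 and leaving out TEF4 -0.43.

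Introns past 1.5-fold lower numbered 1 in prp8-V1860N (against 0) at the exact branch point. That one is NOG2, whose annotated base holds 1 to 9 reads in each mutant sample and 9 in PRP8-WT, so that exact counts of NOG2 say nothing on its level, and NOG2 is also among those that moved the exact counts below. In prp8-V1860D (1) they numbered 3 on the share outside ribosomal protein and host genes, and 0 at the exact branch point or past 2-fold. With that share 1 (EFB1) was lower in prp8-V1870N (0), and with it, TMM or DESeq2, 1 (EFB1) in prp8-N1869D (0). How many of all introns passed the fold under these alternatives was not counted. Introns past 1.5-fold higher numbered 1 in prp8-V1870N (0) at the exact branch point. In prp8-N1869D (1) they numbered 0 with DESeq2, that share or past 2-fold and 3 at the exact branch point, and in its second sample (1) 0 with those or TMM and 2 at the exact branch point.

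The aberrant share with branch points within 10 nt was 0.145% for prp8-V1860N, 0.169% for prp8-V1860D, 0.163% for prp8-V1870N and 0.166% for PRP8-WT. Inside the intron only, it was 0.0475% in prp8-V1870N and 0.0814% in PRP8-WT, which had 0.0756% from pairs with at least 5 reads and 0.0821% without RPL7B intron 1. The alternative branch share was 0.847% for prp8-V1860N, 0.557% for prp8-V1860D, 0.910% for prp8-V1870N, 1.04% for prp8-N1869D and 0.902% for PRP8-WT. Over 10 nt away it was 0.453%, 0.292%, 0.546%, 0.742% and 0.463%. From pairs with at least 5 reads it was 0.727% in prp8-V1860N, 0.780% in prp8-V1870N, 0.839% in prp8-N1869D and 0.759% in PRP8-WT, and without NOG2 it was 0.692%, 0.753%, 0.862% and 0.670%. With NOG2 reads 3 nt before the branch point as annotated, chosen after seeing the data, it was 0.703% in prp8-V1860N, 0.896% in prp8-N1869D and 0.698% in PRP8-WT.

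At the exact branch point, RPL7A intron 2 gave 35.1% in prp8-V1860N, and RPL7B intron 2 gave 4.97%, 3.996%, 4.06% and 5.39% in the mutants in the same order, and 4.02% in PRP8-WT. Leaving out a sample or library put RPL7B in prp8-N1869D (2.38%) at 2.10% to 2.72%. The causes were not tested. No paired analysis was possible because the strains share no replicate numbers that pair libraries. Depth limits RPL7B intron 2, read 110 times in PRP8-WT, and the single sites most.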
